A study of Mus musculus with 4 samples.

Results

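The 10 imprinted growth genes Mest, Dlk1, Plagl1, Igf2, Cdkn1c, Peg3, Grb10, Igf2r, Ndn and Gnas were followed by RNA sequencing in mouse shoulder-capsule cells with and without the microRNA miR-26a. They were taken by gene symbol, and all 10 were present among the 16416 genes of the deposited expression table. The group was chosen by its measured levels in knockout and wild-type cells, led by Mest, so that difference is given below as a description and supports nothing further. Mest was the furthest apart, at 1.32 TPM (a level scaled to transcript length and library depth) in knockout cells, against 197.7 TPM in wild-type cells. The other growth genes ranged between Dlk1, 7.12-fold lower in knockout cells, and Gnas, whose level was nearly equal in the libraries of both genotypes.

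There were 4 libraries, 1 for each group. The first was from miR-26a -/- cells transfected for 24 h with 10 nM miR-26a mimic, the second from miR-26a -/- cells given 10 nM of the siRNA Silencer Negative Control for 24 h, both with Lipofectamine RNAiMax. The third was from untransfected miR-26a -/- cells and the fourth from untransfected wild-type C57BL6/J cells. All were outgrowth cultures from shoulder joint capsule taken 1 week after the joint had been immobilized, a model of frozen shoulder, and were used at passage 2. The labels call the cells synovial fibroblasts. The labels state neither the age and number of the animals behind a culture nor how the deletion was made. With 1 library per group no difference could be set against the spread between cultures, no test was made, and the intervals below cover counting error alone.

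Genomic imprinting is the expression of a gene from the chromosome copy of 1 parent only, set by DNA methylation laid down in the egg or the sperm and kept through later cell divisions. In mice, several paternally expressed imprinted genes promote fetal growth and several maternally expressed ones restrain it. Many of them are active in fetal connective tissue and fall to low levels after birth. Among those measured, Mest, Dlk1, Plagl1, Igf2, Peg3 and Ndn are paternally expressed in mice. Cdkn1c and Igf2r are maternally expressed. Grb10 is maternally expressed in most tissues and paternally in neurons, and Gnas gives maternal, paternal and biallelic transcripts.

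The sequences that link these genes to the experiment are the oligonucleotide itself, its sites in the growth genes, and the microRNA that lies inside Mest. In the microRNAs the capitals mark the seed, bases 2 to 8, through which a microRNA pairs with a target. The mature sequences are from RefSeq (GRCm38.p6), and the guide strand of the mimic as the labels give it was identical to mature miR-26a-5p. The passenger strand differs from miR-26a-1-3p by A14C, counted from the 5′ end, and its capital marks that base.
miR-26a-5p and mimic guide strand: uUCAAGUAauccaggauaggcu
mimic passenger strand: ccuauucuugguuCcuugcacg
miR-26a-1-3p: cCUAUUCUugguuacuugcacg
miR-335-5p: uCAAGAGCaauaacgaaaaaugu
miR-335-3p: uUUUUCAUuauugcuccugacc

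Mest is at chr6:30723547-30748465 on the plus strand (GRCm38, GENCODE M21). The hairpin gene Mir335 lies at chr6:30741299-30741396 on the same strand, within an intron of each of the 3 Mest transcripts that span it. Mature microRNAs were not measured in these libraries, so the level of miR-335 is not analysed here.

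A 3′ untranslated region was annotated for all 10 growth genes, and 2 of them held a site for miR-26a. The sites are shown 5′ to 3′ on the transcribed strand with the matching bases in capitals.
Grb10, chr11:11932871-11932878, minus strand: ccttcccattaTACTTGAAaagcttttttt
Gnas, chr2:174288568-174288574, plus strand: cttaacgagaaACTTGAAacatcagaactg
The Grb10 site is the complement of the whole seed followed by A (TACTTGAA), starting at base 585 of a region of 2955 bases. The Gnas site matches seed bases 2 to 7 followed by A (ACTTGAA), starting at base 120 of 1038. This site lies upstream of the Gnas start windows at chr2:174327499-174327798 and chr2:174329756-174330055, so transcripts from those starts do not hold it. Across 15784 genes with an annotated 3′ untranslated region, 4.77% held TACTTGAA, 11.2% held TACTTGA and 16.4% held ACTTGAA. Neither the complement of the miR-26a seed nor its shorter form was found for Mest, Dlk1, Plagl1, Igf2, Cdkn1c, Peg3, Igf2r and Ndn, which says only that these letters are not in the annotated regions.

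The promoter of Mest is shown because Mest had the lowest ratio of all measured genes, and because the letters TGCCGC, which the imprint-keeping protein ZFP57 binds in mouse when they are methylated, can be searched there. RefSeq start windows, 250 bases before to 50 bases after a start, matched 9 of the 10 growth genes with 18 windows. The Mest window below, at chr6:30737800-30738099 on the plus strand of GRCm38.p6, has 17 CpG dinucleotides and 62.7% G and C. Capitals mark TGCCGC read on the other strand (GCGGCA), found 2 times.
Mest promoter: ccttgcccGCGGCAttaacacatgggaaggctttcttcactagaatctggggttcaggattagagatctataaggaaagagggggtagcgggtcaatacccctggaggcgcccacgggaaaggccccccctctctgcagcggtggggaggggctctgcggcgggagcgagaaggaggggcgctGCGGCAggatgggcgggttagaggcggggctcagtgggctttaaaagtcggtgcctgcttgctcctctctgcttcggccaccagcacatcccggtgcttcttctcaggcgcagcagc
The letters stood on either strand in 5 of the 18 windows, belonging to 4 genes (Mest, Plagl1, Igf2 and Grb10), and in 17.2% of 16390 windows of the same length. The Mest window above and that at chr6:30737803-30738102 overlap and hold the same matches, so the 5 windows are not all separate. A Mest start further upstream, at chr6:30733256-30733555, had 8 CpG dinucleotides and no match. DNA methylation was not measured here, and a match is no evidence of binding.

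The libraries held between 17598763 and 19392655 estimated counts. The ratios below are log2 ratios of counts scaled with TMM factors, which lay between 0.978 and 1.02. A gene was called higher or lower when it differed at least 2-fold, its 95% counting interval excluded 0 and it reached 1 CPM (a count scaled to library depth) in either library. By that rule 757 of 12803 measured genes (5.91%) were higher and 896 (7.0%) were lower in knockout than in wild-type cells. Fibroblast markers were present in every library, with none of 17 at 0 and summed levels of 17500 TPM in mimic, 15200 in negative-control, 17400 in knockout and 26600 in wild-type cells. Macrophage markers were present as well, none of 19 at 0, summing to 33700, 33700 and 35000 TPM in mimic, negative-control and knockout cells, against 24100 TPM in wild-type cells. The cultures were thus mixed by these markers, and a lower level of a gene in them can mean fewer cells that express it or less RNA per cell, which cannot be told apart.

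Mest, which encodes a membrane-bound hydrolase-like protein of the endoplasmic reticulum and is known for its induction in expanding fat tissue, stood at 3.23 TPM in mimic, 2.93 in negative-control, 1.32 in knockout and 197.7 TPM in wild-type cells. These levels rest on 73, 71, 29 and 4044 counts in the same order of libraries. The wild-type library was alone in its high level, and all 3 libraries of knockout cells were low. The log2 ratio of knockout to wild type was -7.07 (95% counting interval -7.69 to -6.59), which is 134-fold lower and the lowest of all 12803 measured genes. Among all genes of the table, Mest was at percentile 27.5 of TPM in knockout cells and at 95.1 in wild-type cells.

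**Figure D1:**
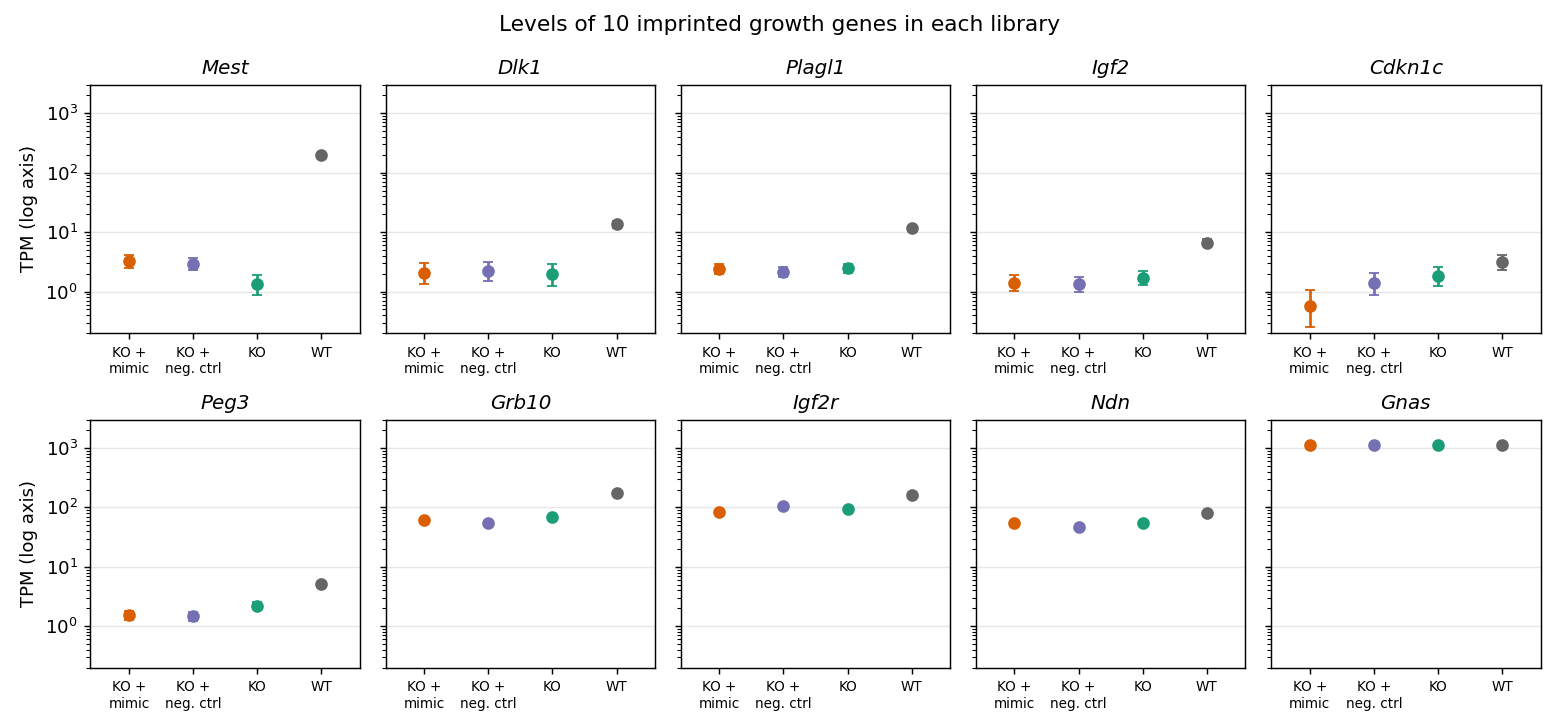
Level of each of the 10 imprinted growth genes in each library, in TPM on a log axis, with 1 point per library and 95% Poisson counting intervals as bars (hidden by the point where narrow). Mest lies at 3.23, 2.93 and 1.32 TPM in the 3 knockout-genotype libraries and at 197.7 TPM in wild type, while Gnas lies between 1111.96 and 1143.84 TPM in all 4.

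The gene next to Mest did not share its difference. Copg2, a subunit of the coat of Golgi vesicles that runs on the opposite strand and overlaps the exons of Mest over 912 bases, had 27.39 TPM in mimic, 28.22 in negative-control, 25.7 in knockout and 28.68 TPM in wild-type cells. Its log2 ratio of knockout to wild type was -0.03 (-0.16 to 0.10). The labels do not say whether reads were counted by strand, so the few Mest counts of the knockout-genotype libraries and reads from Copg2 cannot be told apart. Klf14, a transcription factor gene 207.6 kb away, had 0 counts in the 3 knockout-genotype libraries and 1 count in wild-type cells. Cpa4, a carboxypeptidase gene 131.1 kb away, had 12, 5 and 10 counts in mimic, negative-control and knockout cells, against 21 in wild-type cells. Both were too low for a statement on direction.

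Among the paternally expressed growth factors and regulators, Igf2, the fetal insulin-like growth factor, had 1.39 TPM in mimic, 1.32 in negative-control, 1.69 in knockout and 6.66 TPM in wild-type cells. The knockout to wild-type log2 ratio of Igf2 (chr7:142650766-142666816) was -1.84 (-2.31 to -1.43), 3.59-fold lower. Again the wild-type level stood above all others, whose intervals overlapped. Dlk1, a membrane protein that holds back fat-cell differentiation (chr12:109452823-109463336), had 2.04, 2.19 and 1.95 TPM in mimic, negative-control and knockout cells, against 13.49 TPM in wild-type cells. Its log2 ratio was -2.83 (-3.56 to -2.26), the second lowest of the group.

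Plagl1, a zinc finger transcription factor that regulates other imprinted genes in mice (chr10:13060504-13131694), had 2.38 TPM in mimic, 2.12 in negative-control, 2.46 in knockout and 11.56 TPM in wild-type cells. The log2 ratio was -2.09 (-2.41 to -1.80), or 4.26-fold lower in knockout cells. Peg3, another zinc finger gene, known for its part in growth and maternal care (chr7:6703892-6730431), had 1.53, 1.48 and 2.23 TPM in mimic, negative-control and knockout cells, against 5.1 TPM in wild-type cells. At -1.08 (-1.35 to -0.83), Peg3 was just past the 2-fold line. Ndn, or necdin, a growth suppressor of the MAGE family best known from neurons (chr7:62346569-62350262), had 53.92, 46.68 and 53.78 TPM, against 81.73 TPM in wild-type cells. Its log2 ratio of -0.47 (-0.61 to -0.33) did not reach 2-fold. Thus 5 of the 6 paternally expressed genes, all except Ndn, were at least 2-fold lower in knockout than in wild-type cells. Over all measured genes 7.0% were called lower, and the group was chosen by this difference, so the count is a description only.

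Of the maternally expressed genes, Grb10, an adaptor that dampens insulin and IGF receptor signalling (chr11:11930508-12038683), had 62.24 TPM in mimic, 55.51 in negative-control, 67.91 in knockout and 172.42 TPM in wild-type cells. Its log2 ratio of knockout to wild type was -1.21 (-1.28 to -1.15), 2.32-fold lower in knockout cells. Its 3′ untranslated region carries the 8-base miR-26a site shown above. Igf2r, the receptor that clears IGF2 and sorts lysosomal enzymes (chr17:12682406-12769664), had 84.02, 104.13 and 92.53 TPM in mimic, negative-control and knockout cells, against 162.53 TPM in wild-type cells. Its log2 ratio, -0.69 (-0.73 to -0.64), was well resolved by 7679 knockout and 12443 wild-type counts but under 2-fold.

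Cdkn1c, the cell-cycle inhibitor p57 (chr7:143458339-143461050), had the lowest level of the group in mimic and in wild-type cells. It had 9, 24 and 29 counts in mimic, negative-control and knockout cells, against 46 counts in wild-type cells, which are 0.56, 1.37, 1.83 and 3.1 TPM. The log2 ratio of knockout to wild type, -0.64 (-1.38 to 0.05), was within counting error. Among these 3 genes only Grb10 was called lower, beside 7.0% of all measured genes. They too were chosen by this difference, so the paternally and maternally expressed genes are not compared. Gnas, which encodes the stimulatory G protein alpha subunit and shares its locus (chr2:174284320-174346744) with other imprinted transcripts, had 1111.96 TPM in mimic, 1117.18 in negative-control, 1139.4 in knockout and 1143.84 TPM in wild-type cells. Its knockout to wild-type log2 ratio was 0.14 (0.10 to 0.17) from scaled counts and -0.01 from TPM, so its direction depended on the scaling. Ratios from TPM sat lower than those from scaled counts by 0.13 at the median gene of this comparison (a shift of -0.13).

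**Figure D2:**
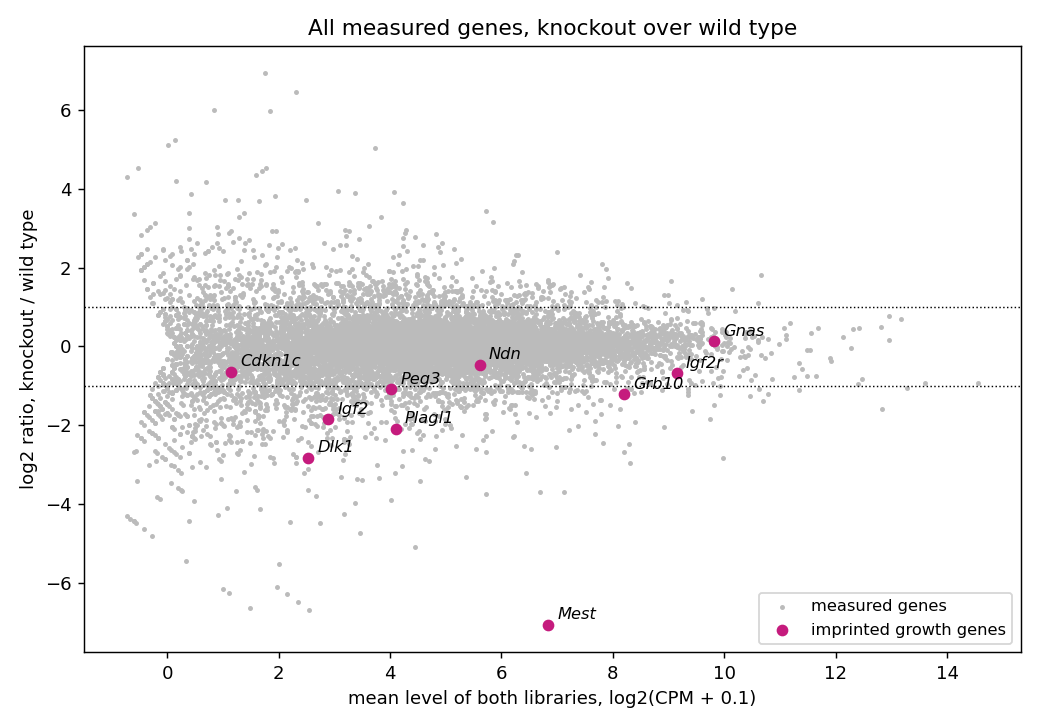
Knockout over wild-type log2 ratio of every measured gene (grey) against its mean level in both libraries, as log2(CPM + 0.1), with the imprinted growth genes in magenta and dotted lines at 2-fold. Mest, at -7.07, is the lowest point, and Gnas, at 0.14, is the single growth gene above 0.

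In all, 6 of the 10 growth genes were called lower and none higher, beside 7.0% lower and 5.91% higher over all measured genes. The median log2 ratio of the 10 was -1.15, against 0.01 over all measured genes. These counts reflect how the genes were chosen. The members just past the 2-fold line were Peg3 and Grb10, at -1.08 and -1.21, and those just short of it were Igf2r and Cdkn1c, at -0.69 and -0.64. In wild-type cells the order by TPM was Gnas, Mest, Grb10, Igf2r, Ndn, Dlk1, Plagl1, Igf2, Peg3 and Cdkn1c, and of these neighbours only Dlk1 and Plagl1 had overlapping counting intervals. In knockout cells Gnas, Igf2r, Grb10 and Ndn led and Mest was last. The lower 6, Plagl1, Peg3, Dlk1, Cdkn1c, Igf2 and Mest, lay between 2.46 and 1.32 TPM and each overlapped the next.

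Other imprinted genes gave few calls, and over all measured genes the shares were 5.91% higher and 7.0% lower, so lists of this size hold few calls in any case. Of 12 measured ones listed as paternally expressed outside the growth group, 0 were called higher and 0 lower, with a median of -0.09. Dio3, a thyroid hormone-inactivating enzyme 815.7 kb from Dlk1, had 23.33 TPM in knockout cells and 17.57 TPM in wild-type cells. Sgce, the epsilon-sarcoglycan, had 52.54 TPM in knockout cells, against 83.61 TPM in wild-type cells. Neither reached 2-fold, and they differed in opposite directions. Of 19 measured ones listed as maternally expressed, 2 were higher, Gatm at 1.72 and Htr2a at 1.3. Another 2 were lower, Slc22a18 at -1.04 and Asb4 at -1.89, and the median was -0.03. Expression by parental copy was not measured, so whether these genes are imprinted in these cells is not known here. Asb4 was named after its value was seen.

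Of 25 measured neighbouring genes at the growth-gene loci, 1 was higher, 3 were lower and the median was -0.03, and the same all-gene shares of 5.91% and 7.0% apply to these small counts. Slc22a18, a transporter gene 12.7 kb from Cdkn1c, had 7.86 TPM in knockout cells, against 17.61 TPM in wild-type cells. Tnnt3, the fast-muscle troponin T gene 134.8 kb from Igf2, had 11 counts in knockout cells, against 50 in wild-type cells, and is itself one of the skeletal muscle markers. The third, Begain, 384.6 kb from Dlk1, had a log2 ratio of -1.64 and was named after its value was seen. Ikzf1, a transcription factor of blood cells 157.6 kb from Grb10, was the higher one, with 17.1 TPM in knockout cells, against 8.63 TPM in wild-type cells, and its call was lost with ratios from TPM. Of 15 measured relatives without imprinting, 0 were higher and 1, the Plagl1 relative Plag1 at -1.02, was lower. Plag1 too was named after its value was seen, and its call was lost with scaling by total count and with a prior of 5 counts.

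Genes that work with IGF2 and insulin leaned to the low side in knockout cells. Of 19 measured, 15 had ratios below 0, 3 were called lower and none higher, with a median of -0.39. Over all measured genes the median was 0.01, with 7.0% called lower and 5.91% higher. The fibroblast markers had a median of -0.79, and the part of cell types in these ratios was not tested. Igfbp5, an IGF-binding protein of connective tissue, had 22.96 TPM in knockout cells, against 137.44 TPM in wild-type cells, a log2 ratio of -2.45. Irs1, the docking protein of the insulin and IGF receptors, had 9.3 TPM in knockout cells, against 22.84 TPM in wild-type cells. Igfbp3, a serum IGF carrier, had 44.86 TPM in knockout cells, against 99.84 TPM in wild-type cells. The log2 ratios of Irs1 and Igfbp3, -1.17 and -1.02, were both past 2-fold. With ratios from TPM 5 of these genes were called lower, and 2 with scaling by total count.

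Factors that keep or write imprint methylation were divided in direction, with 6 ratios above 0 and 7 below in knockout over wild type. Of 13 measured, only Uhrf1, which guides the maintenance methyltransferase to replicating DNA, was called, at 24.93 TPM in knockout cells, against 12.76 TPM in wild-type cells, and with ratios from TPM that call was lost. Dnmt1, that methyltransferase, had 49.42 TPM in knockout cells, against 31.99 TPM in wild-type cells, a log2 ratio of 0.76 (0.66 to 0.85). Dnmt3a had 22.58 TPM in knockout cells, against 15.48 TPM in wild-type cells, and Arid4a had 12.76 against 8.89 TPM. With Uhrf1 and Dnmt1, they had the largest absolute ratios of the list among genes with at least 5 TPM in the highest library. All 20 of the G2/M cell-cycle genes listed were called higher, with a median of 1.4. The median over the maintenance factors was -0.02, against 0.01 over all measured genes, of which 5.91% were called higher and 7.0% lower.

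Cell-type markers differed beside the growth genes. Over all measured genes 5.91% were called higher and 7.0% lower in knockout than in wild-type cells, with a median of 0.01. Of 19 macrophage markers 9 were called higher and 0 lower (median 0.97), among them Csf1r, the receptor for the macrophage growth factor CSF1, at 408.39 TPM in knockout cells and 140.65 TPM in wild-type cells. Of 17 fibroblast markers 7 were called lower and 0 higher (median -0.79). The collagen gene Col3a1 had 1265.33 TPM in knockout cells, against 4127.74 TPM in wild-type cells. Of 7 measured adipocyte markers 5 were called lower (median -1.86), and adiponectin, Adipoq, had 0, 5 and 1 counts in mimic, negative-control and knockout cells, against 204 in wild-type cells. Another adipocyte marker, Cidec, was listed at 0 in the 3 knockout-genotype libraries. Summed adipocyte markers, led by Lpl, were 784, 643 and 614 TPM in mimic, negative-control and knockout cells and 609 TPM in wild-type cells. Lpl itself was the 1 measured adipocyte marker above 0, with 526.74 TPM in knockout cells, against 297.64 TPM in wild-type cells. Of 6 measured skeletal muscle markers 3 were called lower (median -1.07), and their sums were 11.3, 8.67 and 16.5 TPM in mimic, negative-control and knockout cells, against 40.2 TPM in wild-type cells. The part of these cell types in the low growth genes was not tested.

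**Figure D3:**
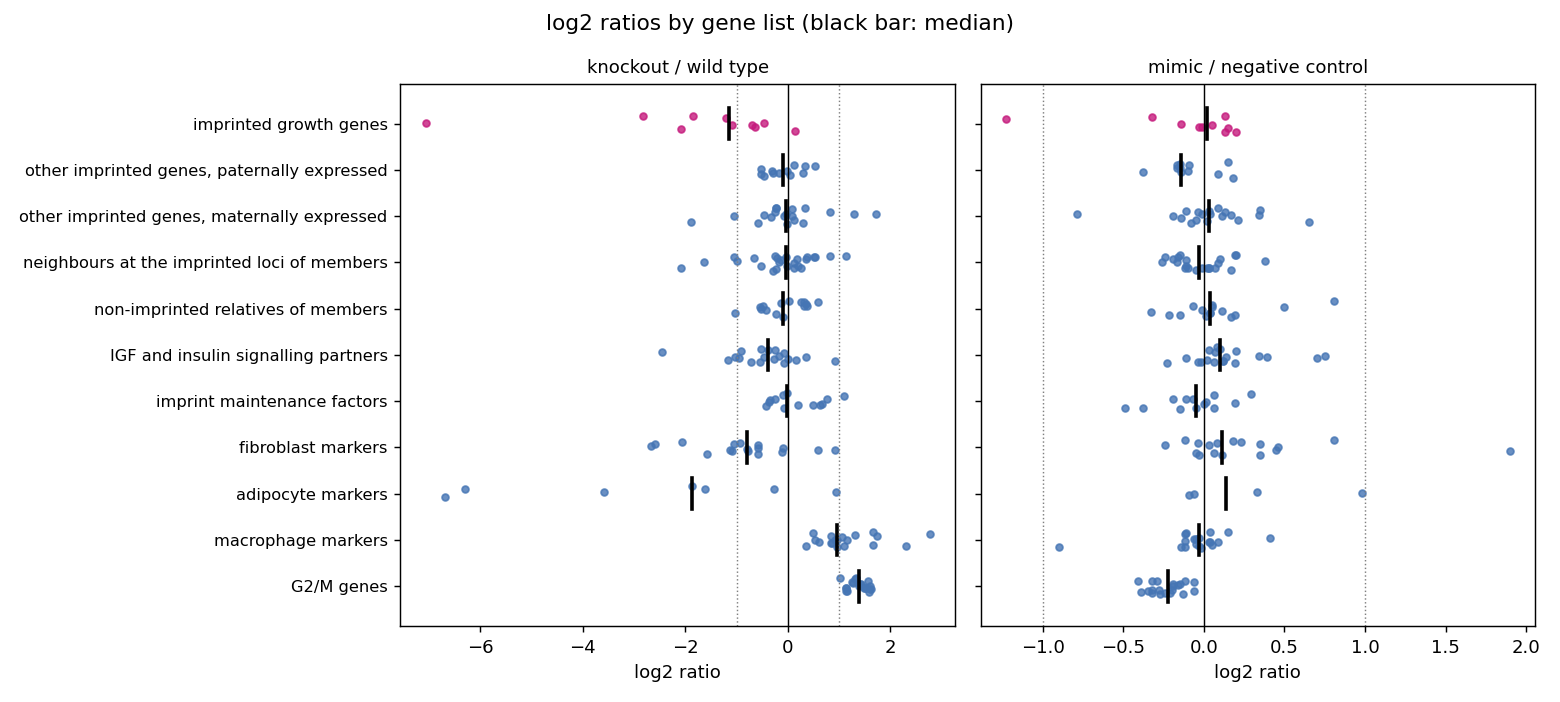
Log2 ratios of the imprinted growth genes (magenta) and of 10 other gene lists (blue), 1 point per measured gene, for knockout over wild type and for mimic over negative control, with black bars at the list medians and dotted lines at 2-fold. For knockout over wild type the growth genes have a median of -1.15, between the fibroblast markers at -0.79 and the adipocyte markers at -1.86. The lists of other imprinted genes have medians of -0.09 (paternally expressed) and -0.03 (maternally expressed). For mimic over negative control the growth genes have a median of 0.02.

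The mimic library was close to its negative control for most of the growth genes, and Mest was as low in both. In mimic against negative-control cells, 107 of 12512 measured genes (0.855%) were higher and 44 (0.352%) were lower, 151 (1.21%) in either direction. Among the growth genes 0 were higher and 1, Cdkn1c, was lower, and the median of the 10 was 0.02, against -0.01 over all measured genes. The counts of Mest were 73 in mimic and 71 in negative-control cells, a log2 ratio of 0.13 (-0.35 to 0.63). Its interval reaches no further than 0.63 in favour of the mimic.

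The other low growth genes were likewise near their negative-control levels. The log2 ratio of mimic to negative control was -0.14 (-0.94 to 0.64) for Dlk1, which leaves either direction possible at 27 and 32 counts. For Plagl1 it was 0.13 (-0.26 to 0.53), for Igf2 -0.03 (-0.65 to 0.59) and for Peg3 0.05 (-0.31 to 0.41). None of these differences was detectable at this depth.

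The abundant growth genes allowed smaller differences to be seen. Grb10, with the full miR-26a site shown above, had 2930 counts in mimic and 2818 in negative-control cells, a log2 ratio of 0.15 (0.08 to 0.23), so it was slightly higher in the mimic library. Gnas was level at -0.01 (-0.04 to 0.02). Its shorter site is not in transcripts from the downstream starts, and its counts were not split by transcript. Igf2r, without a site, had 7089 counts in mimic and 9475 in negative-control cells, a log2 ratio of -0.32 (-0.37 to -0.28). Ndn was at 0.20 (0.05 to 0.35). Apart from Gnas these intervals excluded 0, but the spread between cultures is unknown and none of the differences reached 2-fold.

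Cdkn1c had 9 counts in mimic cells, against 24 in negative-control cells, a log2 ratio of -1.23 (-2.61 to -0.16) and 2.34-fold lower. It holds no miR-26a site in its annotated 3′ untranslated region. The call rests on few counts: it was lost with a prior of 5 counts in place of 1 and with a minimum of 5 CPM, which Cdkn1c did not reach. The G2/M cell-cycle genes were all 20 below 0 in the same comparison, with a median of -0.23 and none called.

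Among the knockout-genotype libraries, Mest was higher in the transfected cells than in the untransfected ones. In negative-control against untransfected knockout cells 37 of 12532 measured genes (0.295%) were higher and 90 (0.718%) were lower. Mest was the 1 growth gene called higher, with 71 counts in negative-control and 29 in knockout cells, a log2 ratio of 1.10 (0.48 to 1.80). Copg2, which overlaps it, stood at 0.10 (-0.03 to 0.23). The call for Mest was lost with a minimum of 5 CPM. None of the growth genes was called lower, but Peg3, at -0.63 (-0.97 to -0.31), Grb10, at -0.32 (-0.40 to -0.25), Ndn, at -0.25 (-0.40 to -0.09), and Gnas, at -0.08 (-0.11 to -0.05), had intervals below 0. Igf2r, at 0.14 (0.09 to 0.18), had an interval above 0. Among the 17 fibroblast markers 3 were lower, Fbn1, Pdpn and Lum, and all 17 ratios were below 0 (median -0.23).

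In mimic against untransfected knockout cells 33 of 12536 measured genes (0.263%) were higher and 59 (0.471%) were lower, 92 (0.734%) in either direction. Mest was called higher at 1.24 (0.62 to 1.94) and Cdkn1c lower at -1.65 (-3.02 to -0.64). These comparisons share the knockout and mimic libraries with those above and are no separate evidence. Grb10 stood at -0.17 (-0.24 to -0.10), below 0 here and above 0 against the negative control. Neither call was kept with a minimum of 5 CPM.

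**Figure D4:**
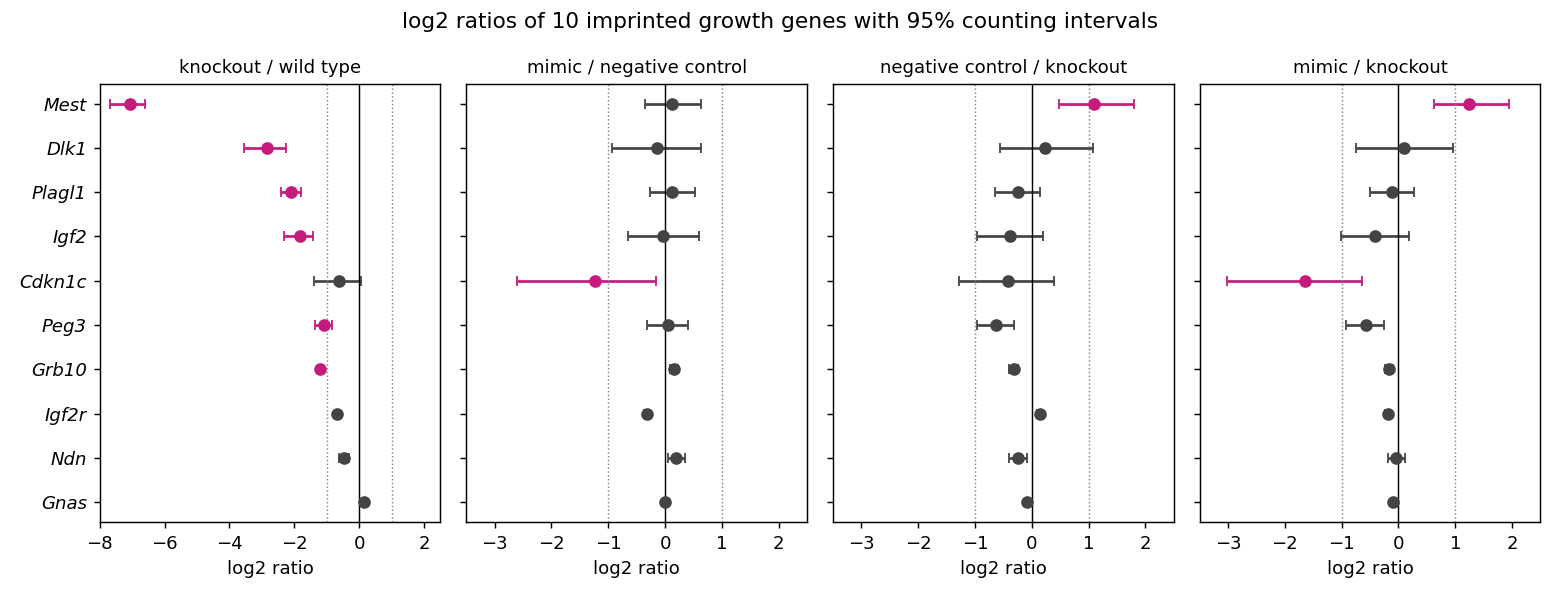
Log2 ratio of each imprinted growth gene in 4 comparisons, with 95% counting intervals as bars, the first panel on a wider axis; magenta marks genes called at 2-fold and dotted lines mark 2-fold. In knockout over wild type 6 genes are magenta, in mimic over negative control only Cdkn1c (-1.23), in negative control over knockout only Mest (1.10), and in mimic over knockout Mest (1.24) and Cdkn1c (-1.65).

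Set against wild-type cells, mimic-treated knockout cells had 744 of 12793 measured genes higher (5.82%) and 984 lower (7.69%). The wild-type library is the same as above, so the values are given side by side only. Mest stood at -5.83 (-6.20 to -5.52), 56.9-fold lower in mimic than in wild-type cells, beside -7.07 for knockout cells. Dlk1 was at -2.73, Plagl1 at -2.20 and Igf2 at -2.25. Peg3 was at -1.66, beside -1.08 for knockout cells, and Grb10 at -1.38, beside -1.21. Cdkn1c, at -2.29 (-3.63 to -1.36), was called lower here as well, which with the 6 that were lower in knockout cells makes 7 of 10 growth genes, and the median was -1.93. With a minimum of 5 CPM, which Cdkn1c did not reach, 6 were lower. Igf2r (-0.87), Ndn (-0.51) and Gnas (0.04) were not called.

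The genes most like Mest across the libraries were sought by the distance between their 3 log2 ratios to wild type and those of Mest, among 10518 genes with at least 5 TPM in the highest library. The nearest were Egfl6, a secreted EGF-like matrix protein (distance 0.90), Cfd, the adipocyte serine protease adipsin (1.01), and Ibsp, bone sialoprotein (1.15). Cyp2f2, a cytochrome P450 (2.06), and Adipoq (2.07) followed. All 5 were at 0.49 TPM or less in each of the 3 knockout-genotype libraries, so their ratios depend on the prior count, and 4 of the 5 were shared with the list obtained at a prior of 5 counts. Ibsp was listed at 0 in all 3 of these libraries and at 6.38 TPM in wild-type cells. Mest was the most abundant of them, at 197.7 TPM in wild-type cells, where Adipoq had 23.51 TPM and Egfl6 8.14 TPM.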

How the data were processed

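The authors deposited a gene table with estimated (expected) counts, FPKM, TPM and a signal of normalized counts for each library, per the file headers, and a table of log2 ratios with p-values. Estimated counts were not scaled, TPM and FPKM are corrected for length and depth, and the authors' deposited log2 ratios equal unscaled count ratios. The submitters' processing notes name HISAT, Bowtie2, FastQC and the builds GRCm38.p6 and mm10. They name no counting tool and no strand setting. Spreadsheet dates in 26 symbols were restored by Entrez identifier.

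From the counts, log2 ratios were computed with edgeR 4.0.16 TMM factors and a prior of 1 count scaled to library size. Counting intervals are exact binomial (Clopper-Pearson) at 95% for ratios and exact Poisson for levels, on rounded counts. They cover counting error only, not the spread between cultures. Reads without molecular identifiers are not independent molecules, so the intervals can be too narrow even for counting error. Totals were 18584404 counts in the mimic, 19392655 in the negative-control, 17598763 in the knockout and 18198033 in the wild-type library. Groups came from the labels. The calling procedure was tested on simulated Poisson counts without spread between cultures, so that test says nothing about such spread. The 10 genes and all lists were chosen with earlier results of these data known. Genes named from a list were drawn from the 4 of largest absolute ratio in knockout over wild type. The 2 of largest absolute ratio in mimic over negative control were added, all with at least 5 TPM in the highest library. Not every gene that met this rule is named, so those named are a selection. Asb4, Begain, Plag1 and Cidec were outside the rule, and the neighbours of Mest were named whatever their values. Alternatives were DESeq2 1.42.0 size factors, total counts, TPM with a pseudocount of 0.1, a prior of 5 counts, a minimum of 5 CPM, no minimum and a 1.5-fold call. Sites and loci came from GENCODE M21, and sequences from RefSeq or the labels.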

Additional observations from a re-analysis of the deposited data

How the results depend on the processing

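No direction of a called growth gene turned under any alternative run, and the counts of called genes over all measured genes and over the growth genes stayed within 1.5 times under DESeq2 size factors, total counts and deposited TPM. Of the counts and medians of the other lists, 1 moved further under DESeq2 size factors, 1 under total counts and 17 under TPM. No paired analysis was possible because each group has 1 library, and for the same reason no replicate could be left out. With a minimum of 5 CPM, 556 genes were lower in knockout than in wild-type cells and 610 in mimic than in wild-type cells. At that minimum mimic over negative control gave 43 higher and 10 lower, negative control over knockout 5 and 33, and mimic over knockout 3 and 9, with 0 growth genes called in these 3 comparisons and 6 in place of 7 lower in mimic over wild type. At 1.5-fold, knockout over wild type gave 1445 higher and 1690 lower, mimic over wild type 1462 and 1758, mimic over negative control 359 and 210, negative control over knockout 123 and 339 with 1 growth gene (Peg3) lower, and mimic over knockout 141 and 226. A prior of 5 counts left 24 genes lower in mimic over negative control with 0 growth genes, 16 higher in negative control over knockout and 34 lower in mimic over knockout. Without a minimum, 82 were lower in mimic over negative control, 74 higher and 136 lower in negative control over knockout, and 69 higher and 90 lower in mimic over knockout. The minimum, the fold and the prior change these counts by construction, the prior by drawing ratios from low counts towards 0. The ratios of the 10 growth genes in 5 comparisons, 50 in all, stayed within their counting intervals under DESeq2 size factors and the prior of 5, and 48 did so under total counts and 42 under TPM. Low counts, such as the 9 of Cdkn1c in mimic cells, set the widest intervals.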

Other observations

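Applying to other growth genes the distance used for Mest, a choice made after the values were seen, the gene nearest to Dlk1 over the 4 libraries was Gap43, a growth-cone protein also found outside neurons, at a distance of 0.19. Gap43 had 6.76, 7.11 and 5.08 TPM in mimic, negative-control and knockout cells, against 45.49 TPM in wild-type cells. The nearest to Plagl1 was Gpm6b, a membrane proteolipid, at 0.13, and the nearest to Igf2 was Synm, an intermediate filament protein, at 0.12.

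Genes with the seed complement of miR-335-5p (GCTCTTG) in the 3′ untranslated region had a median log2 ratio of knockout to wild type of -0.041 (1912 genes), against 0.022 for 10685 genes without it. In mimic over negative control the medians were 0.017 with the site and -0.012 without it. Regions with the site were longer, 2528 bases at the median, against 1048 bases without it. For the miR-26a site TACTTGAA, held by Grb10, the medians in mimic over negative control were -0.089 for 647 genes with it and -0.004 for 11674 without it, and regions with it were again longer, 2735 bases against 1162. In knockout over wild type the medians were -0.012 with that site and 0.013 without it. Grb10 itself was at 0.15 in mimic over negative control, on the other side of 0 from the median of the genes that share its site. Against untransfected knockout cells Grb10 was below 0 in both transfected libraries, at -0.17 in mimic and -0.32 in negative-control cells. Its side of 0 thus depended on the reference library.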
